A study of Mus musculus with 4 samples.

Results

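Tumour cells of 2 mouse KPC lines, KPC-4545 and KPC-3403, were compared through the droplet barcodes that carried keratins of simple epithelia. A barcode is the tag of 1 droplet, and a UMI (unique molecular identifier) stands for 1 captured RNA molecule. A barcode entered the comparison when it held 500 or more UMIs from 250 or more genes, with 20% or less of them mitochondrial, and when Krt7, Krt8, Krt18 and Krt19 together gave 5 or more UMIs per 10000. It also had to hold under 20 UMIs of the fibrillar collagen genes Col1a1 and Col3a1 per 10000, and no UMI of the leukocyte gene Ptprc or of the mesothelial genes Upk3b, Upk1b and Nkain4. This left 2184 of the 6020 barcodes that met the limits on UMIs, genes and mitochondrial share. The barcodes were thus chosen by the measured counts of these 10 genes, and those genes are described without a test.

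The libraries came from orthotopic tumours of the pancreas in untreated C57BL/6J mice, dissected on day 13 after implantation. For each line, 1 library (whole) was made from the unsorted suspension and 1 library (enriched) from cells sorted to be negative for CD45, CD31, EPCAM and TER119, so that tumour cells in the enriched libraries had passed a gate against the epithelial antigen EPCAM. The question was which genes differ between the lines in the same way in both preparations, with 2 libraries per line and the preparation as a term of the fit. KPC is the usual name of a mouse model of pancreatic ductal adenocarcinoma driven by mutant genes in the pancreatic epithelium, Trp53 among them. The labels give no alleles, and each group is 1 line, so that line, tumour and animal cannot be told apart. Nothing in the labels ties a library to an animal of its own, and the p-values below therefore reflect the spread among these 4 libraries, which may be technical.

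Keratins 7, 8, 18 and 19 build the intermediate filaments of pancreatic ducts and of the carcinomas that resemble them. Pancreatic carcinoma cells range from gland-forming cells with tight junctions, mucins and trefoil peptides to spindle-shaped cells that keep little E-cadherin and carry vimentin. Lines from different KPC tumours can sit at different places on that range, and they also differ in the chemokines they release and in how they recruit leukocytes.

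The enriched KPC-4545 library gave 1082 keratin-positive barcodes, the whole KPC-4545 library 77, the enriched KPC-3403 library 646 and the whole KPC-3403 library 379. They held 24900637, 1119569, 10505126 and 4503203 UMIs in the same order, with medians of 14632, 7822, 14949.5 and 5396 UMIs per barcode. The whole KPC-4545 library is thus the shallowest by barcodes and by UMIs, and every comparison of the whole libraries is limited by it. A count of 0 there allows up to 2.69 UMIs per 1000000 and a share of up to 3.90% of barcodes, counting error only. Close to the keratin threshold, 49, 0, 5 and 5 barcodes held 5 to 6 keratin UMIs per 10000, and 38, 2, 4 and 6 barcodes with 4 to 5 were left out.

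Libraries shared barcodes. Of the keratin-positive barcodes, 88 appeared in both the enriched KPC-4545 and the whole KPC-3403 library, and the other pairs of libraries shared 4 to 9. In 91 barcodes of the enriched KPC-4545 library the whole KPC-3403 library held more UMIs, with medians of 795 here and 32020 there, a median ratio of 39.0. Conversely, for the 134 barcodes with most UMIs in the whole KPC-3403 library, a median 2.53% of their UMI number was seen under the same barcode in the enriched KPC-4545 library. Leaving out each barcode that another library held with more UMIs removed 96, 0, 11 and 8 barcodes. The 96 barcodes, called shared below, held 0.360% of the keratin-positive UMIs of the enriched KPC-4545 library. Their share was 95% for Xist, 80.7% for Tm4sf4 and 87.5% for Reg3g, but 21.4% for H2-Aa, 6.25% for Ctse and 0% for Lcn2, all low in that library. Results that rest on them are given with and without them.

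**Figure D1:**
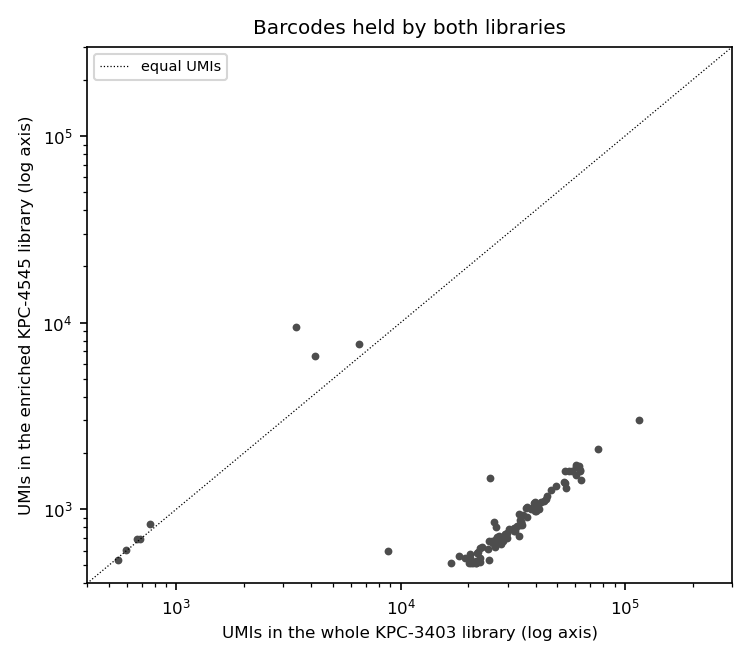
UMIs of the 98 keratin-positive barcodes of enriched KPC-4545 that also hold 500 or more UMIs in whole KPC-3403, 1 point per barcode, with the first library on the vertical and the second on the horizontal axis (both log); the dotted line marks equal UMIs. In 91 of the 98 the whole KPC-3403 library holds more UMIs, at medians of 795 and 32020.

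Markers of other cell types were summed over the same barcodes. The red cell list (6 genes) gave 1.0 and 114 UMIs per 1000000 in the enriched and whole KPC-4545 libraries, and 0.38 and 2200 in the KPC-3403 libraries. The fibroblast list (13 genes) gave 96.4 and 19.7 UMIs per 1000000 in the KPC-4545 libraries and 108 and 17.8 in the KPC-3403 libraries, so that it was higher in both enriched than in both whole libraries. The leukocyte list (20 genes) gave 15.8 and 277 against 271 and 573 UMIs per 1000000, most of it from Cd74, with 208, 166, 2753 and 1787 UMIs, and Ptprc at 0 by the rule. Of the mesothelial list (10 genes, Krt19 and Msln among them), Wt1 and Lrrn4 had 0 UMIs in both KPC-4545 libraries and 18 and 12 UMIs in the enriched KPC-3403 library. The fibroblast gene Dcn had a UMI in 35.0% of the enriched KPC-3403 barcodes and in 4.71%, 1.30% and 2.11% of those of the enriched KPC-4545, whole KPC-4545 and whole KPC-3403 libraries. The acinar list (11 genes) gave 10.4 and 23.2 against 60.9 and 377 UMIs per 1000000, most of it from Reg1 in the KPC-3403 libraries. The endothelial list (8 genes) stayed between 8.28 and 36.9 UMIs per 1000000 and the islet list (7 genes) at or below 0.89. The part of these markers in the results was not tested beyond the settings given beside them.

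**Figure D2:**
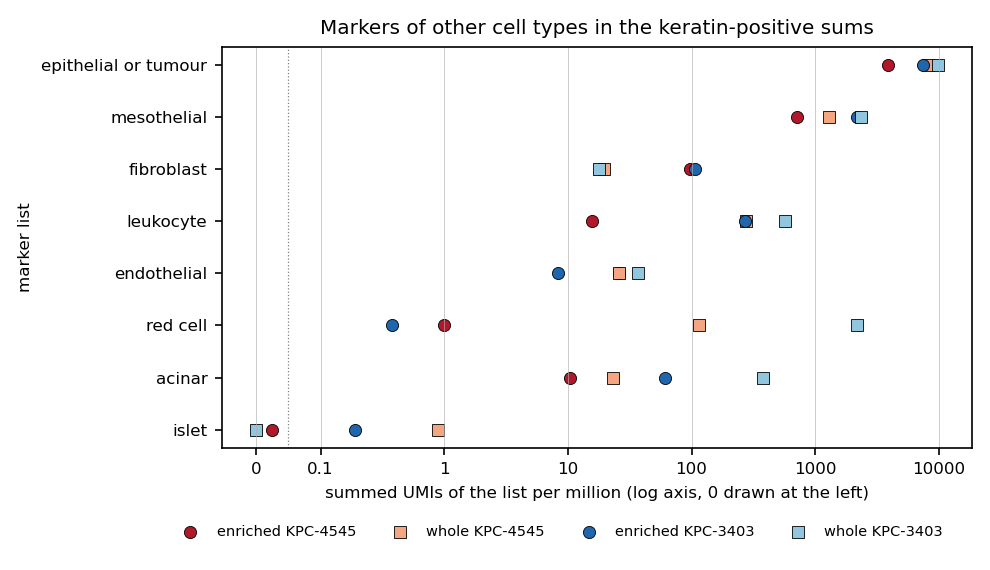
Summed UMIs per 1000000 of 8 marker lists (horizontal, log axis, 0 drawn at the left) over the keratin-positive barcodes, 1 point per library. The red cell list spans 0.38 to 2200 UMIs per 1000000 and separates whole from enriched libraries. The epithelial list lies between 3862 and 9834 in all 4, but it consists mostly of the keratins that chose the barcodes. Its high level was thus set by the rule.

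Of 12062 genes tested, 19 were higher and 30 lower in KPC-4545 (edgeR quasi-likelihood test, Benjamini-Hochberg adjusted p under 0.05), which is 0.158% and 0.249% of the genes and 0.406% together. Their adjusted p ran from 0.0241 to 0.0488, and each of the 49 genes differed by at least 2-fold in the same direction in both preparations. A difference of that size in both preparations, taken as a description with no test, was found for 475 genes higher (3.94%) and 773 lower (6.41%) in KPC-4545, 10.3% together. At an unadjusted p under 0.05 there were 1046 genes higher (8.67%) and 1313 lower (10.9%), and DESeq2 called 143 higher and 270 lower (1.19% and 2.24%), with 48 of the 49 among them. The fit had 1 residual degree of freedom, and a gene that was not called may still differ. The calls lie near the threshold: none was left with at least 10 keratin UMIs per 10000, where the smallest adjusted p was 0.0522, with 2341 genes at an unadjusted p under 0.05, and 1 was left without the preparation term. With 3 libraries and no preparation term, 446 genes were called without the whole KPC-4545 library and 0 without any other library, where 563 to 1223 genes had an unadjusted p under 0.05. Without the shared barcodes held with more UMIs elsewhere, 16 genes were higher and 14 lower, 29 of them among the 49, and the direction of all 49 stayed the same.

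**Figure D3:**
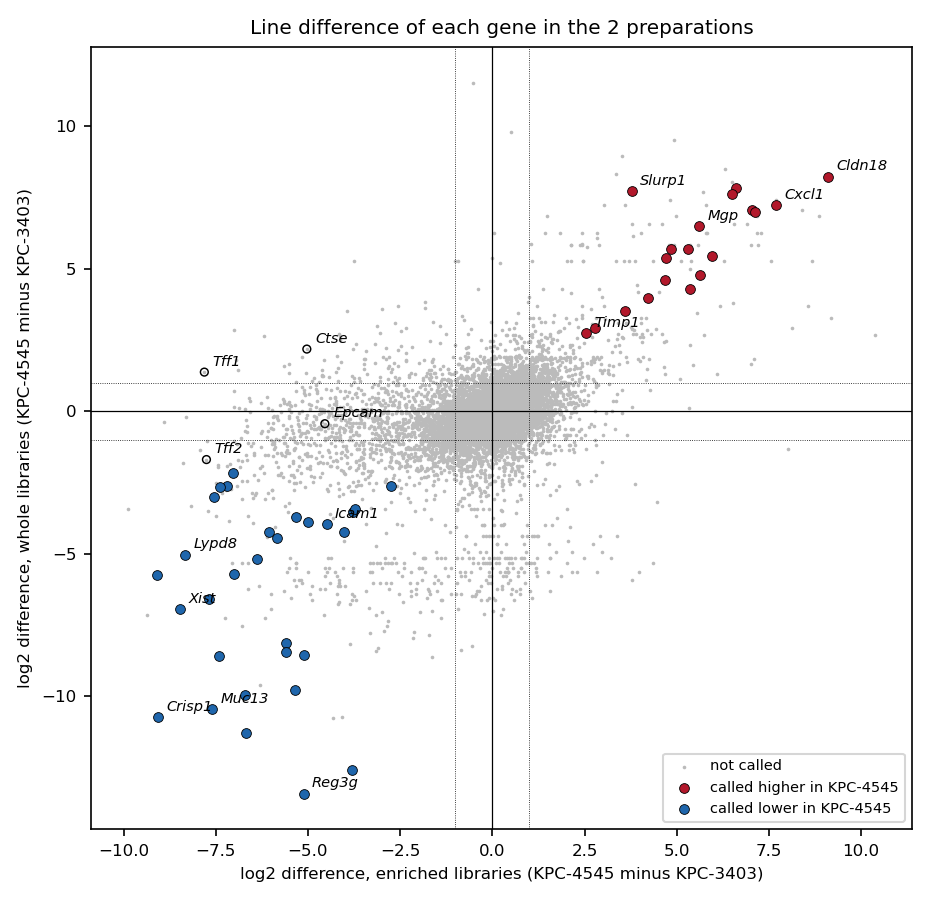
Log2 difference between the lines for each of 12062 genes in the enriched libraries (horizontal) and in the whole libraries (vertical); dotted lines mark 2-fold. The 19 genes called higher (red) and the 30 called lower (blue) in KPC-4545 lie in the corners where both preparations have the same sign, while Tff1 and Ctse lie on opposite sides.

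Levels below are TMM-scaled UMIs per 1000000 (CPM), given for the enriched and then the whole library of a line. Differences are log2 values of KPC-4545 minus KPC-3403. The value after ± is the size of the difference divided by the square root of its quasi-likelihood F statistic. It stands in for a standard error and is rough where a line has few UMIs. Lines are said not to overlap where both libraries of a line lie above both libraries of the other line. How many of all tested genes had that order was not counted. With 2 libraries per line the smallest possible two-sided exact permutation p is 0.333, so the order alone cannot establish a difference. Positions are those of GRCm38 (mm10). A sum over barcodes cannot tell fewer barcodes with a gene from fewer UMIs of it per barcode, and shares of barcodes are given for the leading genes. The genes called higher in KPC-4545 and above a mean of 50 CPM fell into surface and junction genes, chemokines, genes of secreted matrix and antioxidant proteins, a retinoid-binding gene and others.

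Cldn18 (chromosome 9, 99689461 to 99717267), a claudin of gastric and lung tight junctions, stood at 26.1 and 224 CPM in KPC-4545 and at 0 and 0.698 CPM in KPC-3403. Both KPC-4545 libraries lay above both KPC-3403 libraries, and the 3 UMIs of the whole KPC-3403 library were the only ones of that line. The whole libraries thus differed 321-fold, with a counting interval from 109 to 1569, and the fit over both preparations gave 8.67 ± 0.63 (edgeR adjusted p = 0.0241). A Cldn18 UMI was found in 33.0% and 46.8% of the KPC-4545 barcodes and in 0% and 0.792% of the KPC-3403 barcodes, and in 4.10% and 0% of the barcodes of the KPC-4545 libraries that held no keratin UMI. Slurp1 (chromosome 15, 74724318 to 74728034), a secreted protein of the Ly6 family, was at 15.2 and 205 CPM against 1.06 and 0.931 CPM, a difference of 5.62 ± 0.35 (edgeR adjusted p = 0.027). Its edgeR adjusted p was 0.152 without the shared barcodes, and in each library at least 96.9% of its UMIs sat in the 10% of barcodes with most of them.

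Chemokines were also among the genes called higher. Cxcl1 (chromosome 5, 90891241 to 90893115), which attracts neutrophils, was at 1265 and 361 CPM in KPC-4545 and at 6.1 and 2.33 CPM in KPC-3403. The lowest KPC-4545 library was far above the highest KPC-3403 library, and the difference was 7.52 ± 0.29 (edgeR adjusted p = 0.0241). Ccl2 (chromosome 11, 82035571 to 82037453), which attracts monocytes, was at 731 and 75.4 CPM against 25.5 and 1.40 CPM, without overlap of the lines, a difference of 5.15 ± 0.33 (edgeR adjusted p = 0.0283). Its neighbour Ccl7 was at 116 and 16.2 CPM against 21.7 and 0.233 CPM (difference 3.16 ± 0.32), which missed the threshold at an edgeR adjusted p of 0.0641; the whole KPC-4545 library lay below the enriched KPC-3403 library. In the whole KPC-4545 library the chemokine values rest on few barcodes: 98.8% of the Cxcl1 UMIs and 98.8% of the Ccl2 UMIs were in the 10% of barcodes with most of them, and 12 and 9 of its 77 barcodes held a UMI. Without the 1 barcode that held 254 of its 402 Cxcl1 UMIs, the library was at 133 CPM. In the enriched KPC-4545 library 678 of 1082 barcodes held Cxcl1, 546 held Ccl2 and 459 held both.

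Barcodes without any keratin UMI also held Cxcl1. The fibroblast gene Dcn had a UMI in 93.4% of these barcodes in the enriched KPC-3403 library, which are thus largely stromal. In the enriched KPC-4545 library only 18.0% held Dcn, while 24.9% held Crabp2 and 20.8% Aqp5, so those barcodes are not taken as stroma. Cxcl1 had a UMI in 60.3% of the no-keratin barcodes of the enriched KPC-3403 library (1155 barcodes, median 13579 UMIs) and in 8.51% of its keratin-positive barcodes. In the enriched KPC-4545 library the shares were 55.5% of 317 no-keratin barcodes (median 2608 UMIs) and 62.7% of the keratin-positive barcodes. After thinning every barcode to 1000 UMIs, and leaving out 222, 11, 37 and 72 shallower ones, Cxcl1 was found in 41.3% (95% Clopper-Pearson interval 38.0 to 44.7) and 7.58% (2.51 to 16.8) of the KPC-4545 barcodes, and in 1.15% (0.463 to 2.35) and 0% (0 to 1.19) of the KPC-3403 barcodes. Of the whole list of 34 chemokine and cytokine genes tested, Cxcl1 and Ccl2 were called higher and none lower, 4 were at least 2-fold higher in both preparations and 8 at least 2-fold lower, among them Il11, Tnf and Cxcl5. The median of the list was 0.10, beside 0.004 over all genes, so the 2 chemokines do not stand for the list.

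Secreted proteins of the matrix formed another group. Mgp (chromosome 6, 136872435 to 136875823), matrix Gla protein, an inhibitor of calcification, was at 1844 and 172 CPM against 37.8 and 1.86 CPM, a difference of 5.95 ± 0.34 (edgeR adjusted p = 0.0261). Timp1 (chromosome X, 20870166 to 20874735), an inhibitor of matrix metalloproteases, was at 1185 and 498 CPM against 203 and 74.9 CPM, a difference of 2.64 ± 0.21 (edgeR adjusted p = 0.0385). Sod3 (chromosome 5, 52363791 to 52371418), the extracellular superoxide dismutase, was at 191 and 17.9 CPM against 7.45 and 0.698 CPM, a difference of 4.68 ± 0.29 (edgeR adjusted p = 0.0263). For each of the 3 genes both libraries of KPC-4545 exceeded both of KPC-3403. In the whole KPC-4545 library Mgp had 192 UMIs in 11 and Sod3 20 UMIs in 6 of 77 barcodes. Without the 1 barcode with most of its UMIs, Mgp was at 110 CPM and Sod3 at 9.87 CPM there. For Sod3 this is close to the 7.45 CPM of the enriched KPC-3403 library. All 3 are also stromal genes: in the no-keratin barcodes of the enriched KPC-3403 library Mgp had a UMI in 81.3%, Timp1 in 87.4% and Sod3 in 70.1%, against 23.7%, 50.6% and 5.73% of the keratin-positive barcodes there. Without barcodes that held a UMI of Wt1, Lrrn4, Dcn, Lum or Pdgfra, a setting that removed 96, 2, 251 and 15 barcodes, Mgp differed by 6.92, Timp1 by 2.97 and Sod3 by 5.26, each still called.

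Crabp2 (chromosome 3, 87948666 to 87953376), a carrier of retinoic acid, was at 590 and 39.5 CPM against 11.9 and 1.40 CPM, a difference of 5.37 ± 0.29 (edgeR adjusted p = 0.0261). It had a UMI in 65.5% and 14.3% of the KPC-4545 barcodes and in 4.64% and 1.32% of the KPC-3403 barcodes. In the barcodes without a keratin UMI the shares were 24.9% and 0.231% in KPC-4545 and 9.09% and 0.452% in KPC-3403, so that the 4.64% of the enriched KPC-3403 library, whose no-keratin barcodes had a median of 13579 UMIs, lay below that background. Thinned to 1000 UMIs, 34.4% and 6.06% of the KPC-4545 and 0.985% and 0% of the KPC-3403 barcodes held it. Its relative Crabp1 was at 109 CPM in the enriched KPC-4545 and at 11.5 CPM in the enriched KPC-3403 library, and had no UMI in either whole library. Crabp2 was the only called gene of the 19 tested in retinoid binding and synthesis; 2 of them were at least 2-fold higher in both preparations, Crabp2 and the retinoic acid hydroxylase Cyp26a1, and 5 lower, among them Fabp5 and Rbp4, with a list median of -0.95. Without barcodes with a UMI of Wt1, Lrrn4, Dcn, Lum or Pdgfra, Crabp2 differed by 6.38 with an edgeR adjusted p of 0.170.

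Aldh3a1 (chromosome 11, 61207537 to 61218421), an aldehyde dehydrogenase of the NRF2 response, was at 207 and 60.1 CPM against 7.93 and 1.40 CPM, a difference of 4.95 ± 0.30 (edgeR adjusted p = 0.0261). The glutathione transferase gene Gstm1 was at 103 and 81.7 CPM against 21.0 and 13.7 CPM, without overlap, and missed the threshold at an edgeR adjusted p of 0.0641. Among the 32 tested genes of glutathione metabolism and the NRF2 response, Aldh3a1 was the 1 called gene, 3 were at least 2-fold higher and 1 at least 2-fold lower in both preparations, and the median was 0.15.

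Among the 13 mitochondrially encoded mRNAs, mt-Atp8 was the only called gene. It was at 1428 and 629 CPM in KPC-4545 and at 207 and 82.1 CPM in KPC-3403, a difference of 2.86 ± 0.21 (edgeR adjusted p = 0.0345). The adjoining mt-Atp6, which shares 43 bases and a transcript with it, was at 3522 and 7765 CPM against 4316 and 5796 CPM, a difference of 0.06 ± 0.26 (edgeR adjusted p = 0.907). Both encode subunits of the mitochondrial ATP synthase, and the list as a whole had a median of 0.25. The mt-Atp8 gap was not particular to keratin-positive barcodes. Of no-keratin barcodes with a Ptprc UMI, 78.2% in the whole KPC-4545 library held it (median 3588.5 UMIs). In the whole KPC-3403 library it was 30.1% (median 3910 UMIs). In all no-keratin barcodes of the enriched libraries the shares were 67.5% in KPC-4545 and 82.9% in KPC-3403, at unlike medians of 2608 and 13579 UMIs. Of the other RNAs with no known protein, Gm42031 (a long non-coding RNA on chromosome 8) was at 74.5 and 239 CPM against 0.774 and 1.16 CPM (difference 7.08 ± 0.33), and Gm43305 (a processed transcript on chromosome 14) at 60.2 and 302 CPM against 3.19 and 19.3 CPM (difference 4.09 ± 0.24).

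**Figure D4:**
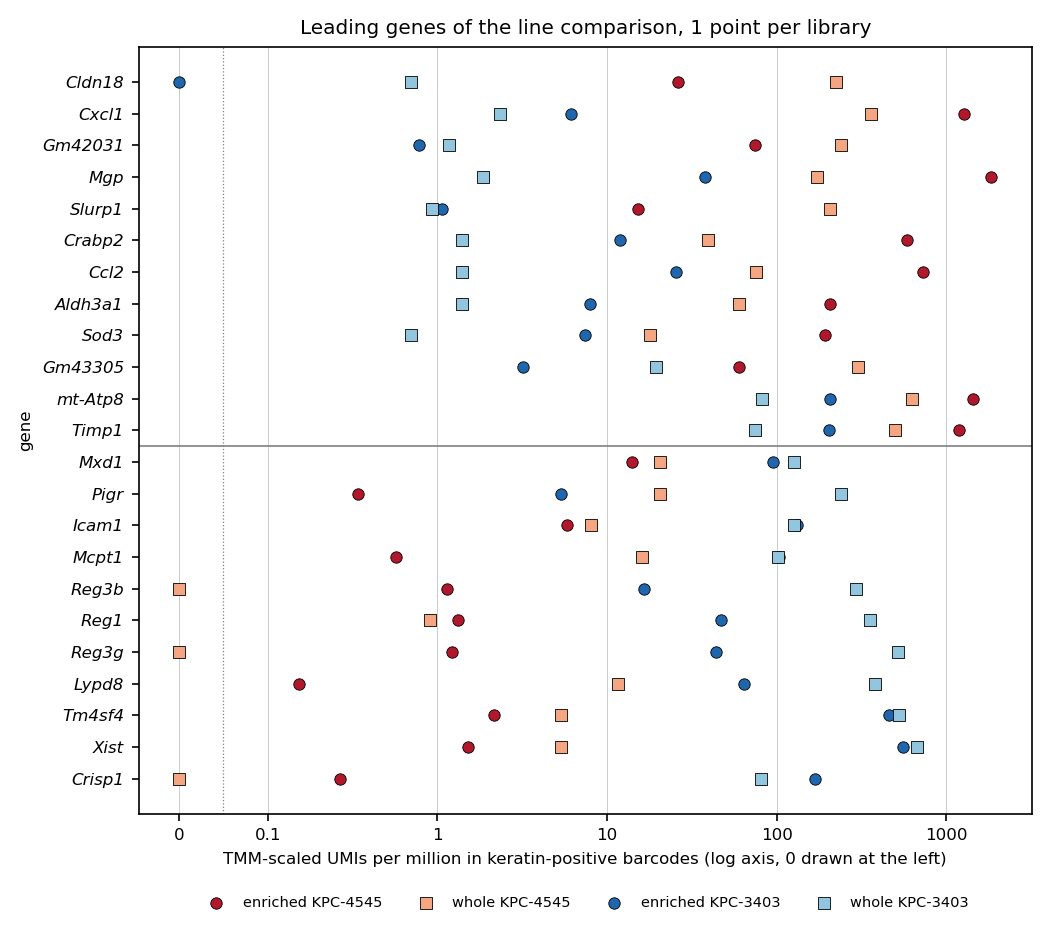
TMM-scaled UMIs per 1000000 (horizontal, log axis, 0 drawn at the left) of the 12 genes called higher (above the grey line) and the 11 called lower in KPC-4545 with a mean of at least 50 CPM, 1 point per library. In every row but Pigr both libraries of 1 line lie on the same side of both libraries of the other line; for Lypd8 this rests on 1 barcode.

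The 7 remaining genes called higher, all under a mean of 50 CPM, were Gm46620, Amigo2, Msx1, Rangrf, Padi4, Sulf1 and Mxra8. They include Msx1, a homeobox transcription factor, with a difference of 7.10 at a mean of 8.64 CPM, Sulf1, an extracellular heparan sulfatase, with 5.27 at 13.1 CPM, and Mxra8, an adhesion protein, with 3.57 at 42.5 CPM. They were named after their values had been seen. So were other genes called lower, among them Il5ra, Cdhr5, Clec2f, Nos2, Spaca9, Clca3b, Cdcp1, Slco2a1, Fes, Ppp1r1b, Myo15b and Vcan. Clec2f, a lectin-like gene, was at 0.492 and 0 CPM in KPC-4545 and at 55.4 and 118 CPM in KPC-3403, and Ppp1r1b, the phosphatase inhibitor DARPP-32, at 0.265 and 13.5 CPM against 45.8 and 84.0 CPM. The inducible nitric oxide synthase gene Nos2 was at 0.189 and 0 CPM against 11.5 and 16.5 CPM.

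The genes called lower in KPC-4545 held a set of intestinal and antimicrobial proteins. The Reg genes encode secreted C-type lectins of pancreas and gut, of which Reg3b and Reg3g bind bacteria, and they lie side by side on chromosome 6. Reg3g (78466269 to 78468872) was at 1.21 and 0 CPM in KPC-4545 and at 43.6 and 517 CPM in KPC-3403, a difference of -6.29 ± 0.30 (edgeR adjusted p = 0.0241). Reg1 (78422711 to 78428667) was at 1.33 and 0.897 CPM against 47.1 and 356 CPM, and fell by 5.97 ± 0.30 (edgeR adjusted p = 0.0241). Reg3b (78370657 to 78373466) was at 1.14 and 0 CPM against 16.5 and 295 CPM, and fell by 5.18 ± 0.31 (edgeR adjusted p = 0.0261). Reg3b was not called by DESeq2 (DESeq2 adjusted p = 0.146). In all 3 the whole KPC-3403 library was the highest, the enriched KPC-3403 library came next, and both KPC-4545 libraries were near 0. In the whole KPC-3403 library Reg3b, Reg1 and Reg3g had a UMI in 21.9%, 17.7% and 25.6% of the keratin-positive barcodes. Among its barcodes without a keratin UMI the shares were 9.34%, 4.07% and 3.31%. In those of the whole KPC-4545 library they were 1.62%, 1.39% and 0%. In both KPC-3403 libraries at least 92.7% of the UMIs of each of the 3 were in the 10% of barcodes with most of them. In the enriched KPC-3403 library 252 of 487 Reg1 UMIs were in 1 barcode, and 22.7 CPM were left without it. The UMIs in the enriched KPC-4545 library came largely from shared barcodes: Reg3g went from 32 to 4 UMIs, Reg1 from 35 to 2 and Reg3b from 30 to 4 without them. Without them Reg1 was still called (edgeR adjusted p = 0.00797), while Reg3g had an edgeR adjusted p of 0.0683 and Reg3b of 0.109. Reads of these related genes could be split between them by the counting. Reg1 is also an acinar gene. The acinar list, of which it is a member, gave 60.9 and 377 UMIs per 1000000 in the KPC-3403 libraries against 10.4 and 23.2 in KPC-4545. Reg1 alone gave 487 of the 640 and 1531 of the 1698 list UMIs in KPC-3403, and 35 of 259 and 1 of 26 in KPC-4545. The list total in KPC-3403 thus mostly restates Reg1, and the part of acinar RNA in the result was not tested.

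Because the 3 Reg genes moved together, the 250 bases before the start of each are shown, up to the start in RefSeq (GRCm38.p6), 5′ to 3′, with the letters TATAAA or their reverse TTTATA in capitals. The windows are chr6:78425733-78425982 on the plus strand for Reg1, chr6:78370635-78370884 on the plus strand for Reg3b and chr6:78468875-78469124 on the minus strand for Reg3g.
Reg1: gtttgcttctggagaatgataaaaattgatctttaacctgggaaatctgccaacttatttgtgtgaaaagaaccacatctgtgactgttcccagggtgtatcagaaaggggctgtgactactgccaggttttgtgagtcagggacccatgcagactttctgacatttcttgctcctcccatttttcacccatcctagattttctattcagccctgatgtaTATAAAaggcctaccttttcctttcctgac
Reg3b: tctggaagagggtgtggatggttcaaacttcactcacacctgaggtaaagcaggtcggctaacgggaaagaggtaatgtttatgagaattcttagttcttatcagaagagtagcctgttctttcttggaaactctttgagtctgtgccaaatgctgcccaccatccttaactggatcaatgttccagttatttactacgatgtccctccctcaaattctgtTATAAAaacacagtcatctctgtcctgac
Reg3g: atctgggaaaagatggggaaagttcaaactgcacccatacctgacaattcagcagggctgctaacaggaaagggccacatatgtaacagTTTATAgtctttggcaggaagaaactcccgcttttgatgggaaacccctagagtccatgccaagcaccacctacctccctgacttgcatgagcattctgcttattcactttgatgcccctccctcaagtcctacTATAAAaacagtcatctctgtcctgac
TATAAA begins 30 bases before the start in Reg1, 29 in Reg3b and 27 in Reg3g, and Reg3g holds the reverse letters 161 bases before it. On either strand these letters occur in 12.4% of the 32851 windows of 250 bases before a start. A match describes the letters only.

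Lypd8 (chromosome 11, 58379043 to 58390728), which keeps bacteria off the colonic epithelium, was at 0.152 and 11.7 CPM against 64.0 and 382 CPM, and fell by 6.61 ± 0.32 (edgeR adjusted p = 0.0241). In the enriched KPC-3403 library 616 of its 662 UMIs were in 1 barcode. Without that barcode the library was at 4.45 CPM, below the whole KPC-4545 library, so that the lines overlapped. Muc13, a transmembrane mucin, was at 0.0758 and 0 CPM against 23.7 and 66.1 CPM (edgeR adjusted p = 0.0261). Pigr (chromosome 1, 130826684 to 130852249), the receptor that carries IgA across epithelia, was at 0.341 and 20.6 CPM against 5.32 and 241 CPM, and fell by 3.70 ± 0.28 (edgeR adjusted p = 0.0345). The enriched KPC-3403 library was below the whole KPC-4545 library, so that the lines overlapped for Pigr, and without the whole KPC-3403 library its difference turned to 0.65. Lcn2, an iron-sequestering acute-phase protein, was at 0.417 and 0 CPM against 79.1 and 18.2 CPM (edgeR adjusted p = 0.0345).

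As a list, gastric and trefoil secretory genes had 27 members tested, with Cldn18 called higher and Muc13, Lypd8, Reg3g, Reg1 and Reg3b called lower. Of these 27, 1 was at least 2-fold higher and 11 at least 2-fold lower in both preparations, with a median of -5.03 in the enriched and -0.37 in the whole libraries. The trefoil genes, whose peptides protect the gastric mucosa, show that gap. Tff2 was at 5.91 and 460 CPM in KPC-4545 and at 1286 and 1489 CPM in KPC-3403 (difference -4.70 ± 2.53, adjusted p = 0.417). Tff1 was at 2.27 and 1493 CPM against 521 and 575 CPM, lowest and highest in the 2 libraries of the same line. The high value rests on 1 barcode, which held 1124 of the 1664 UMIs of Tff1 in the whole KPC-4545 library; without it the library was at 485 CPM, below both KPC-3403 libraries. Of Tff2, 336 of 513 UMIs there were in 1 barcode, and 159 CPM were left without it. Of the few UMIs in the enriched KPC-4545 library, shared barcodes held nearly all: without them 1 of 156 UMIs of Tff2 and 1 of 60 of Tff1 was left. The acute-phase and antiprotease list had 21 tested genes, Lcn2 and Pigr called lower, none called higher, 7 at least 2-fold lower in both preparations and a median of -1.17. It includes Saa3, serum amyloid A, at 0.0379 and 0 CPM against 56.5 and 6.75 CPM (edgeR adjusted p = 0.0581).

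Xist (chromosome X, 103460366 to 103483254), the RNA that coats the inactive X chromosome of female cells, was at 1.52 and 5.38 CPM in KPC-4545 and at 555 and 669 CPM in KPC-3403. The lines did not overlap, and the difference was -7.98 ± 0.51 (edgeR adjusted p = 0.0345). A UMI of Xist was found in 2.68% and 1.30% of the KPC-4545 barcodes and in 84.2% and 51.5% of the KPC-3403 barcodes. Of the 40 UMIs in the enriched KPC-4545 library 38 were in barcodes that another library held with more UMIs, so that 2 were left without them. The edgeR adjusted p was then 0.206 at a larger difference of -9.86. In the remaining barcodes of the same libraries, the host cells among them, Xist was at 57.9 and 453 UMIs per 1000000 in the KPC-4545 and at 332 and 368 in the KPC-3403 libraries. The Y-linked genes Ddx3y and Eif2s3y had no UMI in any of the 4 keratin-positive sums, Kdm5d had 1 and Uty 2 in all. Tsix, which overlaps Xist on the other strand, had 74 and 31 UMIs in the KPC-3403 libraries and none in KPC-4545. Whether counting used the strand is not given in the sources used here, so reads of Xist and Tsix, of Timp1 and Syn1, and of Cldn18, Ccl2, Slurp1, Icam1, Muc13, Nid1 and Adm and the genes that overlap them may not be told apart.

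Further genes called lower in KPC-4545 above a mean of 50 CPM were Crisp1, Tm4sf4, Mcpt1, Icam1 and Mxd1. Tm4sf4 (chromosome 3, 57425314 to 57441677), a tetraspan membrane protein of liver, gut and pancreas, was at 2.16 and 5.38 CPM against 457 and 525 CPM, and fell by 7.34 ± 0.31 (edgeR adjusted p = 0.0241). It had a UMI in 67.6% and 52.5% of the KPC-3403 barcodes and in 3.79% and 5.19% of the KPC-4545 barcodes, and 384 of the 646 enriched KPC-3403 barcodes held both Tm4sf4 and Xist. Without the shared barcodes its edgeR adjusted p was 0.178, at a difference of -8.69. Crisp1 (chromosome 17, 40293758 to 40319207), a secreted cysteine-rich protein best known from the epididymis, was at 0.265 and 0 CPM against 168 and 80.5 CPM (edgeR adjusted p = 0.0241), and all 7 UMIs of the enriched KPC-4545 library were in shared barcodes. Mcpt1 (chromosome 14, 56017971 to 56020384), a chymase known from mucosal mast cells, was at 0.568 and 16.2 CPM against 103 and 102 CPM (edgeR adjusted p = 0.0291). Mxd1, a MAX partner that opposes MYC, was at 14.1 and 20.6 CPM against 95.6 and 127 CPM (edgeR adjusted p = 0.0488). A UMI of Mxd1 was in 44.6% and 30.9% of the KPC-3403 barcodes, and in 15.6% and 34.2% of those without a keratin UMI. In KPC-4545 these shares were 20.5% and 9.09%, and 14.8% and 28.2% without a keratin UMI.

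Icam1 (chromosome 9, 21015985 to 21028817), the ligand of leukocyte integrins, was at 5.80 and 8.08 CPM against 132 and 127 CPM, and fell by 4.30 ± 0.29 (edgeR adjusted p = 0.0291). It had a UMI in 10.7% and 7.79% of the KPC-4545 and in 42.4% and 31.1% of the KPC-3403 barcodes. In barcodes without a keratin UMI the shares were 11.4% and 19.4% in KPC-4545 and 51.0% and 17.5% in KPC-3403. Icam1 and Cxcl1 are both textbook targets of NF-kappaB, and here they moved in opposite directions. The 250 bases before the start of each are shown from RefSeq (GRCm38.p6), 5′ to 3′, with the letters GGAAANNCC or their reverse GGNNTTTCC in capitals. The windows are chr5:90890995-90891244 for Cxcl1 and chr9:21015690-21015939 for Icam1, both on the plus strand.
Cxcl1: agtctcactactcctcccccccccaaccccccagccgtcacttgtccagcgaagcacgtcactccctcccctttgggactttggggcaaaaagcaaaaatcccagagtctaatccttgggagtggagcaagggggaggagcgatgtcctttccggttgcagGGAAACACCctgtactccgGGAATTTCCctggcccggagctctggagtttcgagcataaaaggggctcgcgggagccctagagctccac
Icam1: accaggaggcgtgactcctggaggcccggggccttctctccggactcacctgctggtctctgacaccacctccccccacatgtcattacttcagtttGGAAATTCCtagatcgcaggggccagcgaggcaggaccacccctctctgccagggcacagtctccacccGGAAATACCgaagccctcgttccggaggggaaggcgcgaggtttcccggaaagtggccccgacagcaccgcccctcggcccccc
The letters start 89 bases before the start of Cxcl1, and their reverse 70 bases before it, and they start 153 and 84 bases before that of Icam1. On either strand they occur in 4.93% of the 32851 windows, and a match describes the letters only. Ccl2 is a further target of the same factor.

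Growth factor and matrix genes were also among those called lower. Bmp2, a bone morphogenetic protein, was at 0.189 and 0.897 CPM in KPC-4545 and at 130 and 50.5 CPM in KPC-3403 (difference -8.90 ± 0.47, edgeR adjusted p = 0.0261). Igfbp5, which binds insulin-like growth factors, was at 0.189 and 0.897 CPM against 19.7 and 34.2 CPM (edgeR adjusted p = 0.0241). Nid1, a basement membrane glycoprotein, was at 0.341 and 10.8 CPM against 73.2 and 87.0 CPM (edgeR adjusted p = 0.0291). Adm, the vasodilator adrenomedullin, was at 6.1 and 3.59 CPM against 80.6 and 39.6 CPM (difference -3.65 ± 0.30, adjusted p = 0.0404). For these 4 genes both KPC-3403 libraries exceeded both KPC-4545 libraries. Each was the only called gene of its list: Bmp2 of 31 TGF-beta and BMP genes, Igfbp5 of 13 of the IGF system, Nid1 of 25 integrin and laminin genes, and Adm of 6 of the calcitonin family and of 30 of hypoxia and glycolysis.

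Of 30 hypoxia and glycolysis genes, 9 were at least 2-fold lower and 0 higher in both preparations, beside 6.41% and 3.94% of all genes. The list median was -1.65 in the enriched and -0.63 in the whole libraries. Vegfa, the main angiogenic factor, was at 20.5 and 72.7 CPM against 234 and 198 CPM, and the glucose transporter gene Slc2a1 at 55.5 and 59.2 CPM against 243 and 141 CPM. Neither passed the test (edgeR adjusted p = 0.211 and 0.130). Their lines did not overlap, which is a description with no test. MHC class II genes, which present antigen to CD4 T cells, showed the same order. Of 6 tested none was called and all 6 were at least 2-fold lower in both preparations, with a median of -3.25. H2-Aa was at 1.59 and 8.97 CPM against 36.8 and 59.1 CPM (edgeR adjusted p = 0.0516), H2-Eb1 at 1.40 and 4.49 CPM against 30.9 and 55.2 CPM (edgeR adjusted p = 0.0508), and Cd74 at 7.88 and 149 CPM against 266 and 416 CPM (edgeR adjusted p = 0.323). Without the shared barcodes H2-Aa differed by -3.95 and H2-Eb1 by -4.18. The leukocyte marker list was also higher in KPC-3403 in both preparations, but it includes Cd74, which is in the class II list too. Cd74 gave 208 of 393 and 166 of 310 list UMIs in KPC-4545, and 2753 of 2850 and 1787 of 2581 in KPC-3403. Most of the list total thus restates Cd74 in each library. Of the 20 markers, 11 and 11 had a UMI in the KPC-4545 and 13 and 19 in the KPC-3403 libraries. The part of leukocyte RNA in the result was not tested. The MHC class I list had no called gene of 23 and a median of -0.11, and the interferon response list none of 36, with medians of 0.49 in the enriched and -0.91 in the whole libraries. Oas3, Oas1a and Oas2, sensors of double-stranded RNA, were at least 2-fold lower in both preparations.

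The keratins that chose the barcodes were not level between the libraries. Krt7 was at 1428 and 1575 CPM in KPC-4545 and at 947 and 1444 CPM in KPC-3403, Krt8 at 688 and 1884 against 1819 and 2673 CPM, and Krt18 at 1210 and 2288 against 2166 and 2386 CPM. Krt19 was at 202 and 1144 CPM against 2077 and 2298 CPM, with the enriched KPC-4545 library lowest. The median barcode held 27.6 and 43.0 keratin UMIs per 10000 in the KPC-4545 libraries and 54.3 and 73.6 in the KPC-3403 libraries. Of 10 other keratins tested none was called, with a median of -0.01. Krt14, a basal keratin, was at 15.2 and 37.7 CPM against 125 and 106 CPM (edgeR adjusted p = 0.159), and Krt6a at 106 and 33.2 CPM against 0.774 and 10.5 CPM (edgeR adjusted p = 0.363).

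Epithelial junction genes had their lower median in the enriched libraries. Epcam, the antigen of the gate, was at 1.52 and 426 CPM in KPC-4545 and at 36.4 and 576 CPM in KPC-3403, low in both enriched and high in both whole libraries (difference -2.39 ± 1.49, edgeR adjusted p = 0.466). Of its 40 UMIs in the enriched KPC-4545 library, 4 were left without the shared barcodes. Cdh1, E-cadherin, was at 21.6 and 294 CPM against 73.5 and 282 CPM. Cldn3 was at 1.59 and 63.7 CPM against 102 and 435 CPM, Cldn4 at 1.14 and 45.8 CPM against 7.16 and 157 CPM, and the desmosomal cadherin gene Dsg2 at 0.492 and 43.1 CPM against 21.9 and 106 CPM. Of 39 tested genes of the junction list none was called. At least 2-fold lower in both preparations were 12, and 0 were higher, beside 6.41% and 3.94% of all genes. The list median was -3.24 in the enriched and -0.53 in the whole libraries. DESeq2 called 8 of the 39 lower.

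Vim, vimentin, was at 6161 and 2885 CPM against 6266 and 2656 CPM, a difference of 0.05 ± 0.20 (edgeR adjusted p = 0.910), and the matrix glycoprotein gene Spp1 at 4710 and 3964 CPM against 8610 and 2065 CPM. Of 34 tested genes of mesenchymal transition none was called by edgeR, while DESeq2 called 7 higher and 0 lower. At least 2-fold higher in both preparations were 8, and 1 was lower, beside 3.94% and 6.41% of all genes. At an edgeR unadjusted p under 0.05, 11 were higher and 3 lower, beside 8.67% and 10.9% of all genes. The list median was 0.31. Among the 8, Sparc, a collagen-binding protein, was at 886 and 151 CPM against 130 and 45.6 CPM (edgeR adjusted p = 0.111), S100a4 at 1338 and 695 CPM against 380 and 98.7 CPM (edgeR adjusted p = 0.104), and Cdh2, N-cadherin, at 14.3 and 15.3 CPM against 1.35 and 0 CPM (edgeR adjusted p = 0.158). The transcription factor gene Zeb1, which represses E-cadherin, was at 42.3 and 19.7 CPM against 17.8 and 11.4 CPM (edgeR adjusted p = 0.182). Zeb1 was not among the 8. In these 4 genes both KPC-4545 libraries exceeded both KPC-3403 libraries. The 4 were named from the 34 after their values had been seen, and their order is a description with no test. Without the 1 barcode with most of their UMIs in the whole KPC-4545 library, Sparc was at 123 CPM and Zeb1 at 15.3 CPM there, below the enriched KPC-3403 library.

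**Figure D5:**
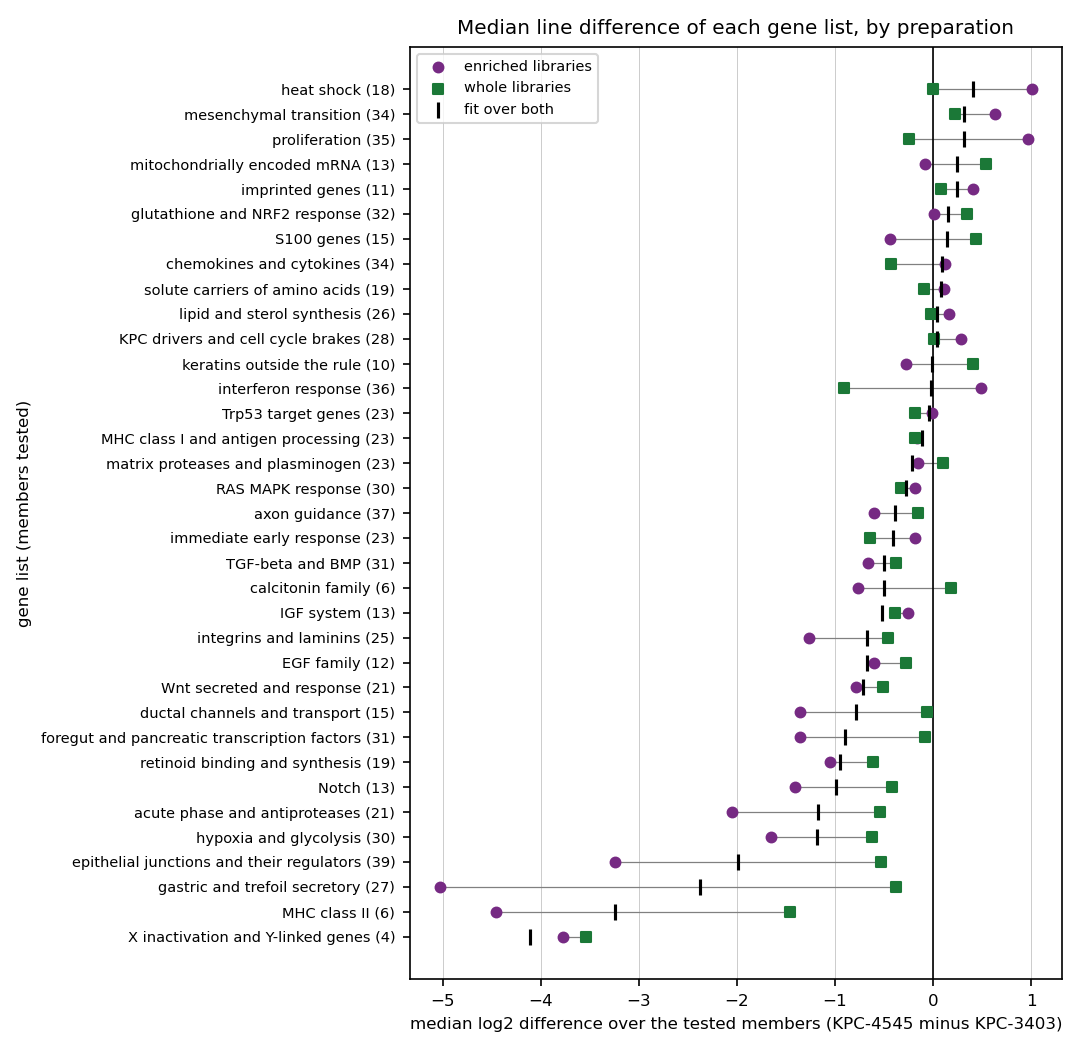
Median log2 difference (KPC-4545 minus KPC-3403, horizontal) over the tested members of each gene list, with circles for the enriched and squares for the whole libraries, and ticks for the fit over both; the vertical line is the median of all genes. Gastric and junction genes lie near -5.03 and -3.24 in the enriched but near -0.37 and -0.53 in the whole libraries, and the class I list is near 0 in both.

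Trp53 was at 116 and 60.1 CPM against 98.8 and 94.2 CPM, and Cdkn2a, which encodes the cell cycle brakes p16 and p19, at 1178 and 726 CPM against 849 and 608 CPM. The differences of -0.19 ± 0.29 and 0.36 ± 0.20 did not pass the test (edgeR adjusted p = 0.738 and 0.374). Of 28 genes of the list of KPC drivers and cell cycle brakes, 2 were at least 2-fold higher in both preparations, Cdkn1c and Cdkn2c. At least 2-fold lower were 4, Ccnd2, Mycl, Rb1 and Cdkn1b. Over all genes 3.94% were higher and 6.41% lower by that measure. At an edgeR unadjusted p under 0.05, 1 was higher and 7 lower, beside 8.67% and 10.9% of all genes. Of the 28, of 23 Trp53 targets and of 30 genes of the RAS and MAPK response none was called, with medians of 0.04, -0.04 and -0.28. The cyclin gene Ccnd1 was at 670 and 332 CPM against 222 and 289 CPM (edgeR adjusted p = 0.323), and the Trp53 target Btg2 at 155 and 72.7 CPM against 449 and 198 CPM (edgeR adjusted p = 0.0946).

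Transcription factors of foregut and pancreas had no called gene of 31, 3 at least 2-fold higher and 4 lower in both preparations, and a median of -0.89. Sox9, the ductal factor, was at 78.3 and 63.7 CPM against 329 and 144 CPM (edgeR adjusted p = 0.136), and Onecut2 at 17.3 and 276 CPM against 418 and 392 CPM (edgeR adjusted p = 0.451). Sox11, a factor of embryonic tissues, was at 3.75 and 17.0 CPM in KPC-4545 and had no UMI in either KPC-3403 library. The water channel gene Aqp5 was at 670 and 134 CPM against 74.8 and 68.6 CPM, without overlap of the lines (edgeR adjusted p = 0.274), and was the most abundant of 15 tested genes of ductal channels and transport, of which none was called, with a median of -0.79.

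Lists of general cell state had no called gene, where 0.406% of all genes were called. Proliferation genes had a median of 0.97 in the enriched and -0.24 in the whole libraries over 35 genes, and Mki67 was at 101 and 76.3 CPM against 33.6 and 81.9 CPM. Heat shock genes had a median of 1.01 and 0.00 over 18 genes, though the small heat shock gene Hspb8 was at 69.6 and 35.0 CPM against 2.23 and 0 CPM (edgeR adjusted p = 0.128). Immediate early genes, which respond to dissociation, had a median of -0.41 over 23 genes, with Fos at 2671 and 616 CPM against 1818 and 1029 CPM. No gene was called either among the EGF family (12 tested, median -0.67), Notch (13, -0.99), Wnt (21, -0.71), axon guidance (37, -0.39), S100 (15, 0.15), imprinted (11, 0.25), lipid and sterol synthesis (26, 0.04) or amino acid transport and synthesis genes (19, 0.08). The most abundant S100 gene, S100a6, was at 14332 and 21026 CPM against 9022 and 10678 CPM (edgeR adjusted p = 0.174). None of the 34 Hox genes passed the filter on low counts. Timp1 was the 1 called gene of 23 matrix proteases and plasminogen genes, whose median was -0.21.

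The share of keratin-positive barcodes among those that met the quality limits did not order the lines. It was 63.9% (95% Clopper-Pearson interval 61.6 to 66.2) and 14.4% (11.5 to 17.6) in the enriched and whole KPC-4545 libraries, and 25.1% (23.4 to 26.8) and 31.1% (28.5 to 33.8) in the KPC-3403 libraries. The KPC-4545 libraries were both the highest and the lowest. The means of the lines were 39.2% and 28.1% (two-sided exact permutation p = 1, n = 2 per line; the smallest possible p is 0.333), and without the enriched KPC-4545 library KPC-4545 minus KPC-3403 was -13.7 percentage points. The sort, and the limit on collagen genes and that on Ptprc and the mesothelial genes, which removed 138 and 115 barcodes of the enriched KPC-3403 library, act on these shares directly.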

How the data were processed

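The files hold UMI counts for each gene and barcode, left unnormalized by the authors, from libraries of 5′ chemistry. The submitters' processing notes name Cell Ranger 6.1.1 and mm10, whereas Cell Ranger 4 is the version per the file headers. The deposited matrices list all barcodes, so cells had to be selected here, by the limits given above. The labels gave the line and the preparation of each library, and no doublet caller was run.

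UMI counts were summed per library over the keratin-positive barcodes, which held 1119569 to 24900637 UMIs. The sums were tested with edgeR 4.0.16 (R 4.3.3; TMM scaling, filterByExpr, robust quasi-likelihood fit, Benjamini-Hochberg adjustment at 0.05) with preparation and line as terms. The 6 selecting genes that passed the filter were left out of 12068 fitted genes. Differences within a preparation used a prior count of 0.5. Named were, per direction, up to 15 called genes averaging 50 CPM or more, of equal sign in the enriched and whole libraries, per list up to 4 called members or else the 2 most abundant, and Epcam. Further genes were added after their values had been seen. The barcode limits, the gene lists and the named-gene rule were chosen with earlier results of these data known.

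Intervals of shares are 95% Clopper-Pearson intervals, and a floor of 3 UMIs stands for a count of 0; both cover counting error only. Thinning drew 1000 UMIs per barcode. DESeq2 1.42.0 was run as an alternative on the same counts, with limma 3.58.1 as a dependency of edgeR, and numpy 2.4.6, pandas 2.3.3, scipy 1.17.1 and matplotlib 3.10.9 were used in Python 3.11.15. Of 21 alternative settings 18 were planned and 3 were added after the data had been seen. Levels without the barcode that holds most of a gene's UMIs were also computed after the data had been seen. The fit was tested on simulated data. It called 36 of 100 genes with a true log2 difference of 2, in either direction. With a true log2 difference of 4 it called 100 of 100. Promoter windows were read from RefSeq tables, which held 5 of the genes for which a window was sought; Ccl2 is named only. Some genes are not reported here.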

Additional observations from a re-analysis of the deposited data

Results flagged for a closer look

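Among genes averaging 50 CPM or more, 6 differed between the lines by at least 2-fold in opposite directions in the 2 preparations. Of all 12062 genes tested, 227 did so. The opposition was not tested, since each preparation has 1 library per line. Values are log2 differences of KPC-4545 minus KPC-3403, first within the enriched and then within the whole libraries, followed by the enriched minus the whole difference. Tff1, a gastric trefoil peptide, gave -7.81 and 1.38, a gap of -9.19, with 2.27, 1493, 521 and 575 CPM in the enriched and whole KPC-4545 and the enriched and whole KPC-3403 libraries. Ctse, the gastric protease cathepsin E, gave -5.03 and 2.18, a gap of -7.22, with 3.03, 372, 101 and 81.9 CPM. In both genes the enriched KPC-4545 library was the lowest. The whole KPC-4545 library was the highest, but for Tff1 this rests on 1 of its 77 barcodes, which held 1124 of 1664 UMIs; without it the library was at 485 CPM, below the whole KPC-3403 library, and the differences were not opposite. The tight junction gene Cldn7 gave -2.84 and 1.14, a gap of -3.97, with 1.29, 293, 9.48 and 133 CPM. Of its 327 UMIs in the whole KPC-4545 library 90 were in 1 barcode. Without it the library was at 213 CPM, under 2-fold above the whole KPC-3403 library. Sprr1a, a cornified envelope protein, gave -2.56 and 1.58, a gap of -4.14, with 183, 1496, 1079 and 502 CPM. Of its 1667 UMIs in the whole KPC-4545 library 1095 were in 1 barcode, and without it the library was at 513 CPM, close to the whole KPC-3403 library. The interferon-inducible transcript AW112010 gave -3.40 and 1.30, a gap of -4.71, with 13.9, 443, 148 and 180 CPM. Of its 494 UMIs in the whole KPC-4545 library 138 were in 1 barcode. Without it the library was at 319 CPM, under 2-fold above the whole KPC-3403 library. The beta-globin gene Hbb-bs gave 2.09 and -4.06, a gap of 6.15, with 0.568, 72.7, 0.0968 and 1210 CPM, highest in the whole KPC-3403 library. Its enriched difference rests on 15 UMIs in KPC-4545 against 1 in KPC-3403. The counting interval of the KPC-3403 to KPC-4545 ratio there, 0.00404 to 1.11, includes no difference.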

How the results depend on the processing

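Under 21 alternatives, 28 of the 29 called genes named by the rule kept their direction wherever they were tested; Pigr ranged from -8.44 to 0.65 when single libraries were left out. The number of calls moved much more, from 49 (19 higher, 30 lower in KPC-4545). It was 92 (39 and 53) with RLE size factors, 413 (143 and 270) with DESeq2, 101 (45 and 56) without the filter on low counts, 39 (21 and 18) with the legacy quasi-likelihood fit and 34 (16 and 18) with at least 1000 UMIs and 500 genes. It was 21 (12 and 9) without the 5% of barcodes with most UMIs, 30 (16 and 14) without barcodes that another library held with more UMIs, and 57 (23 and 34) without barcodes with a UMI of Wt1, Lrrn4, Dcn, Lum or Pdgfra. It was 0 (0 and 0) with at least 10 keratin UMIs per 10000 (edgeR, 2341 genes at an unadjusted p under 0.05) and 0 (0 and 0) without barcodes of 500 or more UMIs in another library (edgeR, 1725 genes at an unadjusted p under 0.05). Without the preparation term, which is the replicate block here, 1 gene was called (1 and 0). Leaving out single libraries, also without that term, gave 0 to 446 calls, 0 to 151 higher and 0 to 295 lower; the lone sample of a line was assumed to vary like the other. The line difference in the share of keratin-positive barcodes ran from -13.7 to 35.8 percentage points when single libraries were left out. Why the counts moved was not tested. The depth of the whole KPC-4545 library, with 77 keratin-positive barcodes, limits every comparison.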
